A study of Mus musculus with 6 samples.

Results

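The genes described here are 7 mouse genes of acidic histone chaperones: *Anp32a*, *Anp32b* and *Anp32e* of the Anp32 family, *Set*, *Nap1l1* and *Nap1l4* of the NAP family, and *Nasp*. They are 7 of the 18324 gene rows of the count table, found by mouse symbol, and all 7 are among the 11324 rows that passed the filter on low counts. The group was chosen by its measured difference between high- and low-pigmented cells, since *Anp32b* had been seen lower in the high-pigmented cells of every set of libraries. Values of that difference are therefore given as a description. Where a fit across all genes called some of the 7, the count stands beside the share of all genes called, and nothing is read from it. The cells were B16-F10, an established mouse melanoma line that makes variable amounts of melanin, cultured with no drug or genetic change named in the labels and sorted by the light scatter of melanin. High-pigmented cells gave 3 libraries and low-pigmented cells gave 3 libraries. A suffix in the titles (16-9-15, 18-8-14 or 1-9-14) is shared by 1 high- and 1 low-pigmented library, and the libraries that share it are called a set here. The labels do not say whether a set is a separate culture, sort or passage, so p-values measure only the spread between these libraries, which may be technical.

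Histone chaperones bind histones through acidic surfaces, keep them from sticking to DNA and other proteins, and hand them on when nucleosomes are built, opened or exchanged. ANP32 proteins carry leucine-rich repeats and a long acidic tail. ANP32A is found with SET in an inhibitor of histone acetylation. ANP32A and SET also inhibit the phosphatase PP2A, and ANP32E removes the histone variant H2A.Z from nucleosomes. SET, NAP1L1 and NAP1L4 share the NAP fold, NAP1-like proteins carry H2A-H2B dimers, and NASP guards the pool of soluble H3-H4 and also binds linker histones. In growing melanoma cells this machinery serves chromatin assembly at replication as well as transcription.

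Libraries held 3819605 to 7311131 gene counts. The libraries of set 18-8-14 stood apart from the other 4 libraries: a row named RP23-81C12.3, which the labels do not describe, held 53.9% (high-pigmented) and 27.1% (low-pigmented) of their gene counts, against 3.54% to 5.03% elsewhere. Their TMM factors, which scale a library by the bulk of its genes, were 0.452 and 0.736 against 1.31 to 1.33 elsewhere. Genes with any count numbered 10620 and 12778 in them, against 14130 to 15002 elsewhere. Mitochondrial rRNA took 12.2% and 7.69% of gene counts, against 1.51% to 1.99%. Reads in no feature were 29.5% and 24.5% of tallied reads, against 12.4% to 17.9%. The high-pigmented library was the more extreme on each measure. What this does to the differences within set 18-8-14 was not tested. All 7 melanocytic markers had counts. They are given as summed CPM (counts scaled to a common library size, TMM factors included). The sums were 12300, 4420 and 20700 CPM in the high-pigmented libraries of 16-9-15, 18-8-14 and 1-9-14. With low pigmentation they were 10600, 6150 and 17200 CPM in the same order. The high-pigmented library thus had the higher sum in 16-9-15 and 1-9-14 but the lower sum in 18-8-14. The lowest sums were in set 18-8-14. Of 5 fibroblast markers 2 have a row in the count table (*Col3a1*, *Dcn* and *Lum* do not). Their sums were 0.466 to 12.2 CPM (high-pigmented) and 2.09 to 4.61 CPM (low-pigmented). Of 5 leukocyte markers 2 have a row (not *Ptprc*, *Cd3e* or *Cd79a*), with sums of 0.350 to 2.10 CPM and 0 to 1.48 CPM. Of 3 endothelial markers 1 has a row, with 20 counts, all in the high-pigmented library of 18-8-14. *Cdh5* and *Kdr* have no row, and neither has any of 3 keratinocyte markers. Whether a marker without a row had 0 counts or was left out of the count table cannot be told.

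The genes lie apart in the genome. In GENCODE vM21 on GRCm38, *Anp32b* spans chr4:46450902-46472657, *Anp32a* chr9:62341293-62378812, *Anp32e* chr3:95929246-95947390, *Set* chr2:30057378-30072577 and *Nap1l1* chr10:111473223-111498150, all on the plus strand. *Nap1l4* spans chr7:143513579-143549106 and *Nasp* chr4:116601052-116627941, on the minus strand. All 7 are protein-coding, and no exon of another annotated gene overlaps theirs on either strand. Transcripts of *Anp32b*, *Anp32e* and *Nap1l4* shared no stretch of 100 nucleotides at 95% identity with another gene of that annotation. The count table does hold a row named *Anp32b-ps1*, with at most 17 counts in a library, which was not among the matches. Its likeness to *Anp32b* was not measured. *Anp32a* shares 362 nucleotides with the pseudogene *Anp32-ps*, which had at most 3 counts in a library. *Nap1l1* shares 1234 nucleotides with *Gm4204*, a row with up to 310 counts, and *Set* up to 1424 with 11 genes, of which the 1 in the table had up to 150. *Nasp* shares up to 207 nucleotides with 157 genes. Counts of *Set*, *Nap1l1* and *Nasp* are uncertain to that extent.

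Promoters are printed for the 4 most abundant of the 7 genes, *Anp32b*, *Set*, *Nap1l1* and *Anp32e*, to show how their sequences differ. Each is the RefSeq window of GRCm38.p6 from 250 bases before to 50 after an annotated start, read 5′ to 3′ on the plus strand. For *Set* the table holds 2 windows. The one at the RefSeq start of the gene is printed, which lies inside the longer GENCODE span given above, and the other was not used. Capitals mark matches on either strand to any of 4 motifs. The E-box CACGTG is bound by MYC and MITF. The CCAAT box is written by its own letters and bound by NF-Y. The E2F-like sequence searched for was GCGGGAA. The GC box, bound by SP1, was searched for as GGGCGG.
Anp32b, chr4:46450676-46450975: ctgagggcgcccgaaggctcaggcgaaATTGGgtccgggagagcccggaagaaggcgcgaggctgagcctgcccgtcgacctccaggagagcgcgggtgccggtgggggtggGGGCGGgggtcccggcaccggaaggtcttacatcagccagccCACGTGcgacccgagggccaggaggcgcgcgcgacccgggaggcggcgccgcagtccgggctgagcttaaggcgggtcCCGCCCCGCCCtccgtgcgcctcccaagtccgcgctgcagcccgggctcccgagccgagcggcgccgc
Nap1l1, chr10:111472977-111473276: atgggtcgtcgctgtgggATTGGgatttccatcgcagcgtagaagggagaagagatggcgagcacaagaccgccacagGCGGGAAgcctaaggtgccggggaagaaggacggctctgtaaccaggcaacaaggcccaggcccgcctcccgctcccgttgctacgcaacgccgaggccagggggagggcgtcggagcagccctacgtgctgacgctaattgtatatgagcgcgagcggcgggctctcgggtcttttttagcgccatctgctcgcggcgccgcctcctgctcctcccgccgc
Set, chr2:30061746-30062045: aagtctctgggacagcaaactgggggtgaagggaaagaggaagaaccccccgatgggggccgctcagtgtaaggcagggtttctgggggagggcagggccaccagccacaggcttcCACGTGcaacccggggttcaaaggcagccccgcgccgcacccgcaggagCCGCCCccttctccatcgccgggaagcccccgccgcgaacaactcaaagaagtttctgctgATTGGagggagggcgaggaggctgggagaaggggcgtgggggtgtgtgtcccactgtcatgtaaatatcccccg
Anp32e, chr3:95929007-95929306: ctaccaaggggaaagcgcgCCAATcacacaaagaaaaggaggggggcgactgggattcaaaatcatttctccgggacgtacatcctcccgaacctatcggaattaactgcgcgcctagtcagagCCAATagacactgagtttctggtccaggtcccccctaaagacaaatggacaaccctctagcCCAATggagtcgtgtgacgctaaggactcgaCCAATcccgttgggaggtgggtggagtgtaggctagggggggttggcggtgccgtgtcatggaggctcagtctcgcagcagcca

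The window of *Anp32b* is 76.3% G or C with 40 CpG dinucleotides, against 53.8% and a median of 7 over the 32851 windows of the table. It holds 1 E-box, 1 CCAAT and 3 GC boxes, of which the last 2 overlap by their end base. The printed *Set* window holds 1 E-box, 1 CCAAT and 1 GC box, and that of *Nap1l1* 1 CCAAT and 1 E2F-like sequence. The *Anp32e* window is 56.3% G or C and holds 4 CCAAT matches and none of the other 3 motifs. Over all windows, 7.2% hold an E-box, 37.4% CCAAT, 4.6% the E2F-like sequence and 35.7% a GC box. *Anp32a* and *Nasp* have windows with 3 and 2 CCAAT matches and no E-box. *Nap1l4* was not matched, so 6 of the 7 genes had a window. These matches are letters in a window and say nothing of binding.

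*Anp32b* transcripts were less abundant in high- than in low-pigmented cells of each set. The high-pigmented libraries of 16-9-15, 18-8-14 and 1-9-14 had 434, 823 and 382 CPM, and the low-pigmented ones 822, 2133 and 625 CPM. Low-pigmented cells thus had 1.89, 2.59 and 1.64 times the level of high-pigmented cells of their own set, but the groups overlapped, because the high-pigmented library of 18-8-14 lay above the low-pigmented libraries of the other sets. Group means (± SD, n = 3) were 546 ± 241 CPM with high and 1193 ± 820 CPM with low pigmentation, a log2 difference of -1.13 ± 0.57 (SE) in a fit with no term for the sets. Without the low-pigmented library of 18-8-14 the log2 difference was -0.41, and without the high-pigmented one -1.54. These are bulk libraries, in which fewer cells with a transcript and less of it per cell cannot be told apart.

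*Anp32a*, the founding member of the family, was the least abundant of the 7 genes. It had 24.9, 44.2 and 29.9 CPM in the high-pigmented libraries of 16-9-15, 18-8-14 and 1-9-14 against 35.7, 88.3 and 40.0 CPM with low pigmentation. It was lower in the high-pigmented library of each set, by 0.51, 0.99 and 0.41 on the log2 scale, and here too the high-pigmented library of 18-8-14 lay above the low-pigmented libraries of the other sets. The lowest count behind these values is 76, with an exact Poisson 95% interval of 59.9 to 95.1, which covers counting error only. Without the low-pigmented library of 18-8-14 the fitted log2 difference of -0.73 ± 0.50 (SE) was -0.21.

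*Anp32e*, the H2A.Z chaperone, did not share this pattern. It had 233, 85.0 and 223 CPM in the high-pigmented and 308, 80.9 and 223 CPM in the low-pigmented libraries of 16-9-15, 18-8-14 and 1-9-14. Its within-set log2 differences were -0.40, 0.07 and -0.0012, near 0 in sets 18-8-14 and 1-9-14. Without library scaling the value in 18-8-14 was -0.63, below 0, where scaling put it above. Its level in 18-8-14 was the lowest of the sets, opposite to *Anp32b* and *Anp32a*, whose highest levels were there.

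The make-up of the family can be read within a library, where scaling does not enter. *Anp32b* made up 62.7%, 86.4% and 60.2% of the counts of the 3 *Anp32* genes in the high-pigmented libraries of 16-9-15, 18-8-14 and 1-9-14, against 70.5%, 92.6% and 70.4% with low pigmentation. The Wilson 95% intervals, of counting error only, were 61.2% to 64.1% and 69.5% to 71.6% in 16-9-15, 84.7% to 88.0% and 92.1% to 93.2% in 18-8-14, and 58.9% to 61.5% and 69.4% to 71.3% in 1-9-14, high- before low-pigmented. They do not cover the spread between libraries, and the direction for *Anp32b* follows from how the group was chosen. *Anp32e* took the complementary share, from 33.7%, 8.92% and 35.1% in the high-pigmented libraries to 26.4%, 3.51% and 25.1% with low pigmentation. *Anp32a* stayed between 3.06% and 4.71%. The ratio of *Anp32b* to *Anp32e* counts in 18-8-14 was 9.69 (high-pigmented) and 26.4 (low-pigmented). In 16-9-15 it was 1.86 and 2.67, and in 1-9-14 it was 1.71 and 2.80. Set 18-8-14 thus stood apart from the other sets, which differed less from each other than their high- from their low-pigmented libraries.

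**Figure D1:**
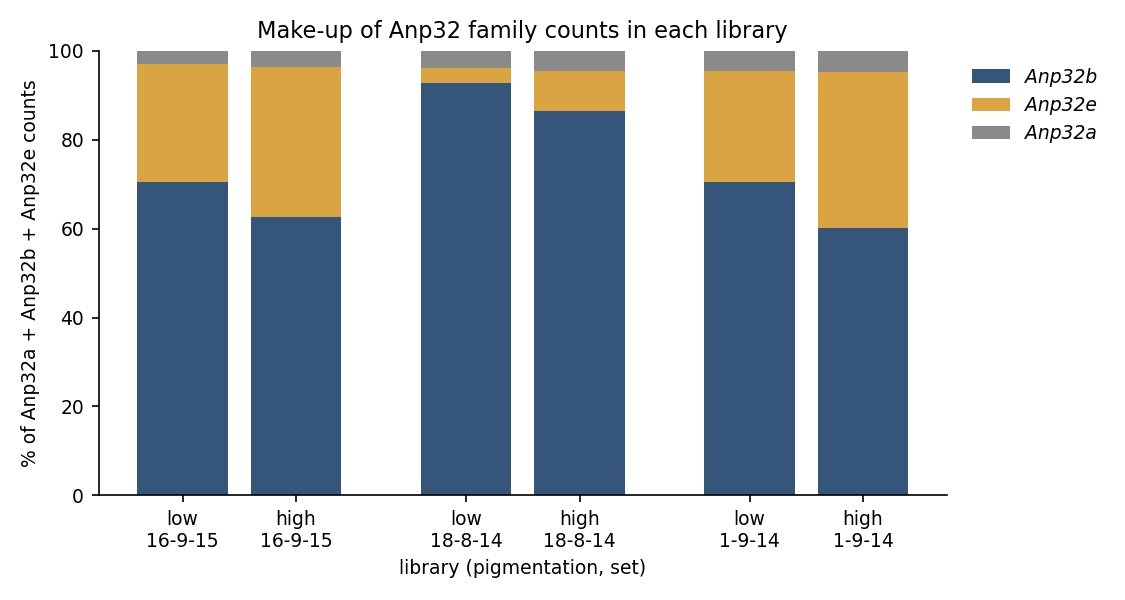
Share of each gene in the summed counts of Anp32a, Anp32b and Anp32e, as stacked bars in percent for each of the 6 libraries, grouped by set. The Anp32b part is larger in the low- than in the high-pigmented library of each set, and largest in set 18-8-14 (92.6% and 86.4%).

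*Set*, whose protein joins ANP32A in inhibiting histone acetylation, had 557, 414 and 514 CPM in the high-pigmented libraries of 16-9-15, 18-8-14 and 1-9-14. With low pigmentation it had 753, 515 and 744 CPM in the same order. The within-set log2 differences of -0.43, -0.31 and -0.53 were the most even of the 7 genes. The groups overlapped only through the low-pigmented library of 18-8-14, which was below the high-pigmented one of 16-9-15. Group means (± SD, n = 3) were 495 ± 73.2 CPM with high and 670 ± 135 CPM with low pigmentation, a fitted log2 difference of -0.44 ± 0.36 (SE).

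*Nap1l1*, which carries H2A-H2B, followed *Anp32b* in having its highest level in the low-pigmented library of 18-8-14. It had 207, 246 and 134 CPM in the high-pigmented and 300, 561 and 195 CPM in the low-pigmented libraries of 16-9-15, 18-8-14 and 1-9-14. Low-pigmented cells had 1.45, 2.28 and 1.45 times the level of high-pigmented cells, a fitted log2 difference of -0.85 ± 0.49 (SE), or -0.34 without that low-pigmented library. Its paralogue *Nap1l4* had 97.8, 48.9 and 68.6 CPM against 107, 69.2 and 92.2 CPM in the same order. The log2 differences of *Nap1l4* were smaller, -0.13, -0.50 and -0.42, and its lowest level was in 18-8-14. The ratio of *Nap1l1* to *Nap1l4* counts was 2.12, 5.02 and 1.96 in high-pigmented and 2.80, 8.11 and 2.12 in low-pigmented libraries, higher in the low-pigmented library of each set.

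*Nasp*, the chaperone of soluble H3-H4, differed between sets more than between pigmentation groups. With high and then low pigmentation it had 200 and 221 CPM in 16-9-15, 79.7 and 138 CPM in 18-8-14, and 54.8 and 71.2 CPM in 1-9-14. It was lower in the high-pigmented library of each set, by 0.15, 0.78 and 0.37 on the log2 scale in sets 16-9-15, 18-8-14 and 1-9-14. The fitted log2 difference of -0.36 ± 0.61 (SE) turned to 0.11 without the low-pigmented library of 16-9-15.

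**Figure D2:**
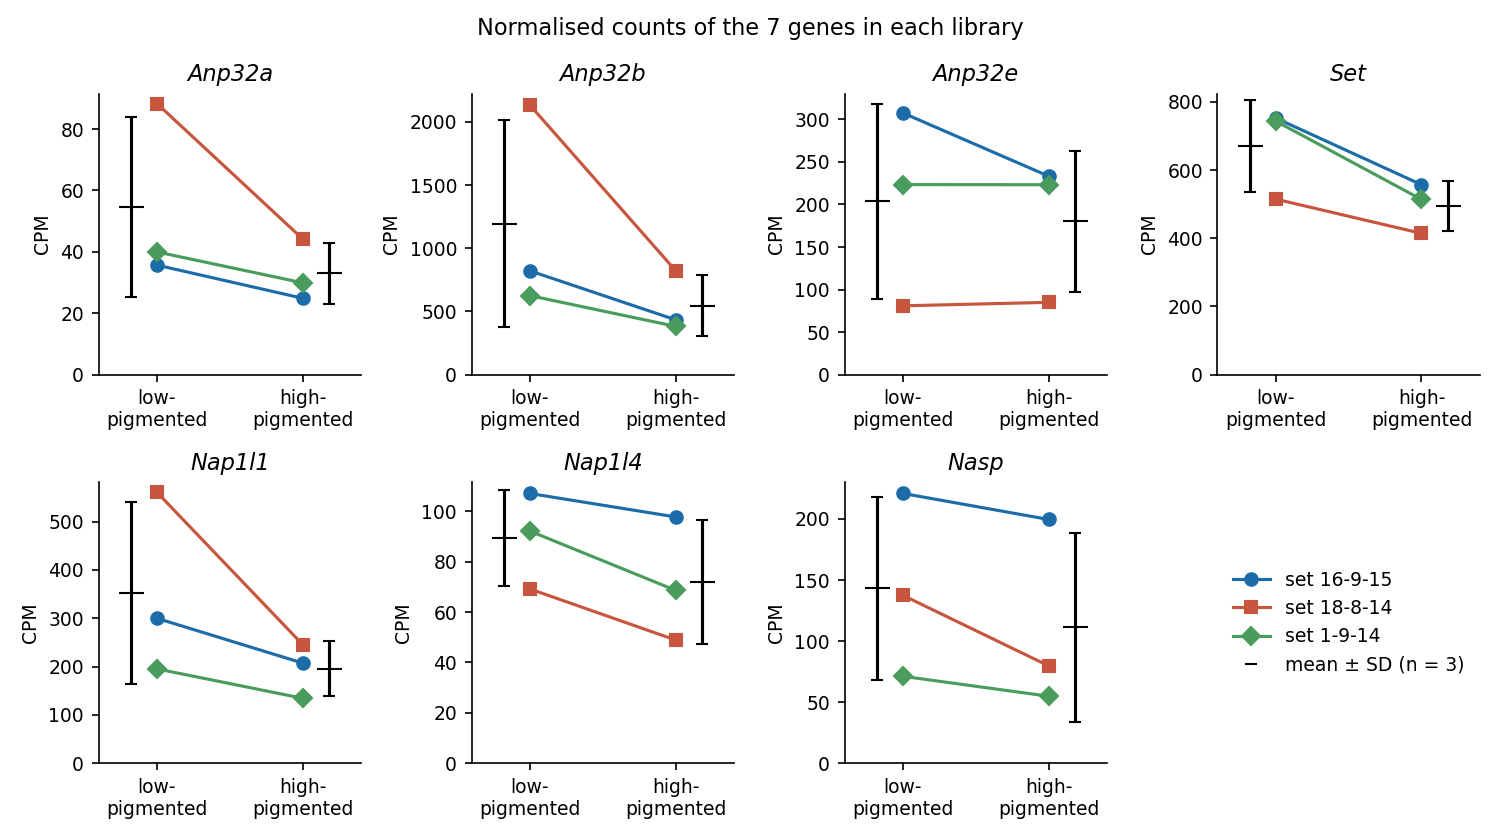
Normalised counts (CPM, linear axes from 0) of the 7 genes in each library, with lines joining the low- and high-pigmented library of a set and bars giving the mean ± SD of each group (n = 3). The lines fall from low to high pigmentation in every set for 6 genes, while the Anp32e line of set 18-8-14 rises slightly (80.9 to 85.0 CPM) and that of set 1-9-14 is flat.

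Set beside the whole table, 6 of the 7 genes were lower in the high-pigmented library of every set, where 17.2% of the 11324 genes tested were. Without set 18-8-14, 7 of 7 were lower in each of the other sets, where 28.3% of genes were. The count takes any difference below 0, and *Anp32e* enters it with -0.0012 in 1-9-14. In none of the 7 did all high-pigmented libraries lie below all low-pigmented ones, as they did in 3.31% of genes. Without library scaling *Anp32a* and *Anp32b* did so, with 3.06% of genes. Without set 18-8-14, *Anp32a*, *Anp32b* and *Set* did so, with 12.4% of genes. The median within-set log2 difference of the 7 genes was -0.43, -0.78 and -0.42 in 16-9-15, 18-8-14 and 1-9-14, and that of all genes 0.02, -0.20 and -0.0024. Differences in 18-8-14 were wide for all genes: the 5th and 95th percentiles were -5.12 and 2.99, against -0.77 and 0.99 in 16-9-15. *Anp32b* lay below all but 3.31% of genes in 16-9-15 and all but 27.9% in 18-8-14. Since the group was chosen on this contrast, nothing is read from these counts.

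**Figure D3:**
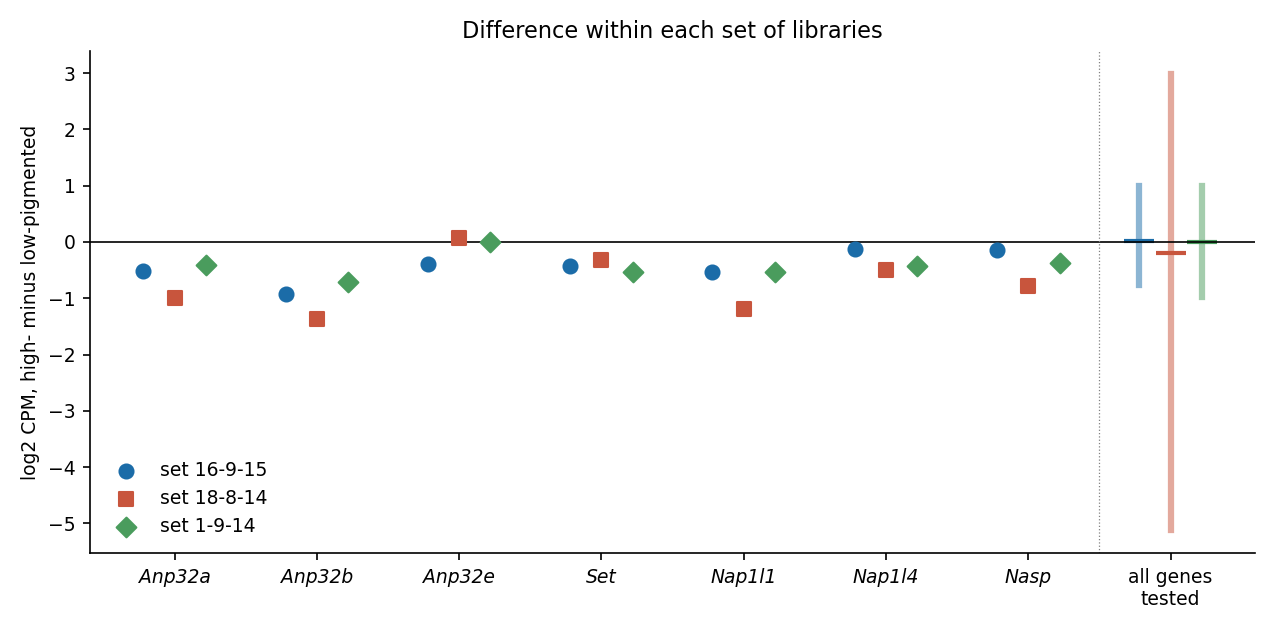
Log2 CPM of the high- minus the low-pigmented library in each set for the 7 genes (points), with the median and the 5th to 95th percentile range of all genes tested on the right (tick and bar). Every point lies below 0 except that of Anp32e in set 18-8-14 (0.07), and the range of all genes is widest in set 18-8-14 (-5.12 to 2.99).

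Across all genes, no gene had an adjusted p under 0.05 between high- and low-pigmented cells by the quasi-likelihood test of edgeR after Benjamini-Hochberg adjustment (0 of 11324 and 0 of the 7, so the share called lower was 0%). Without adjustment 38 genes had a p under 0.05, and DESeq2 called 0 genes. With the sets as a replicate block and all 6 libraries, 0 genes passed. With the block and set 18-8-14 left out, 3 of the 7 were called lower in high-pigmented cells (*Anp32b*, *Set* and *Nap1l1*), where 0.370% of 11906 genes were called lower. Again nothing is read from this count, because the genes were chosen on the same contrast.

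Differences between the sets were not used to choose the genes and were tested, with pigmentation as a covariate. *Anp32b* averaged 628, 1478 and 504 CPM over the libraries of 16-9-15, 18-8-14 and 1-9-14, and *Anp32e* 270, 82.9 and 223 CPM. *Nasp* averaged 210, 109 and 63.0 CPM, a span of 3.34-fold between the highest and lowest set, and *Set*, with 655, 465 and 629 CPM, spanned 1.41-fold. In edgeR's test none of the 7 passed, and 0 of 11324 genes did (0% called). The adjusted p was 0.0894 for *Anp32e*, 0.0938 for *Anp32b* and 0.0971 for *Nasp*, from 0.151 to 0.262 for the others, and the smallest of any gene was 0.0593. Without adjustment, 5 of the 7 had a p under 0.05, as did 2545 genes (22.5%). DESeq2 called 4 of the 7, *Anp32b*, *Anp32e*, *Nap1l1* and *Nasp*, and 17.0% of all genes.

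The calls between sets varied with the libraries of 18-8-14. Without its high-pigmented library 7 of the 7 genes passed, and 57.1% of all genes. Without its low-pigmented library 5 of the 7 passed, all but *Anp32a* and *Set*, and 63.0% of all genes. In these fits the remaining library of the set is assumed to vary like the others. Between 16-9-15 and 1-9-14 alone, *Nasp* (edgeR adjusted p 2.57e-09) and *Nap1l1* (0.00114) passed, 2 of the 7, and 25.5% of all genes did. That fit holds only 4 libraries, so its p-values rest largely on spread shared across genes. *Nasp* was 3.62-fold higher in 16-9-15 in high-pigmented and 3.09-fold higher in low-pigmented cells, and *Nap1l1* 1.54-fold in both. *Anp32b*, at 1.14- and 1.31-fold, did not pass (0.0864).

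Counts of this 3′-end kit do not scale with transcript length. Other differences between genes in how reads are captured and assigned were not checked. The shared sequence described above makes counts of *Set*, *Nap1l1* and *Nasp* uncertain, so the order of genes is approximate. In mean level over the 6 libraries the order was *Anp32b* (870 CPM), *Set* (583), *Nap1l1* (274), *Anp32e* (192), *Nasp* (127), *Nap1l4* (80.6) and *Anp32a* (43.8). The ranges over libraries of every pair of neighbours in this order overlapped. The order of *Set* and *Anp32b* varied with the library. *Set* had 1.28, 0.504 and 1.35 times the counts of *Anp32b* in the high-pigmented libraries of 16-9-15, 18-8-14 and 1-9-14, and 0.916, 0.241 and 1.19 times in the low-pigmented libraries.

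The genes whose pattern over the 6 libraries came nearest to that of *Anp32b* were found by the root mean square difference of log2 CPM, after each gene's mean was subtracted, among 7781 genes that averaged at least 10 CPM. They were *Lyar* (0.122), a nucleolar protein gene, *Fam195a* (0.130), *Gon4l* (0.185), *Golim4* (0.190), a Golgi membrane protein gene, and *Rif1* (0.201), which acts in replication timing and DNA repair. Each had its highest level in the low-pigmented library of 18-8-14, such as 130 CPM for *Lyar* and 354 CPM for *Rif1*. *Lyar* had within-set log2 differences of -0.64, -1.37 and -0.86, beside -0.92, -1.37 and -0.71 for *Anp32b*. *Fam195a* had only 16 counts in the high-pigmented library of 18-8-14. *Gon4l* had 21 to 122 counts in a library. It shares up to 2894 nucleotides with 11 genes, of which the 7 in the count table had up to 359 counts. It also overlaps exons of 2 genes on the opposite strand, so its counts are uncertain. Of the other chaperones described here *Nap1l1* (0.271) ranked 16th and *Anp32a* (0.317) ranked 30th, *Set* (0.896), *Nasp* (0.944) and *Nap1l4* (0.973) were somewhat nearer than the median gene of the ranking (1.07), and *Anp32e* (1.43) was farther than that median. Likeness over 6 libraries is a description, and the libraries share the line and, in pairs, a set.

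**Figure D4:**
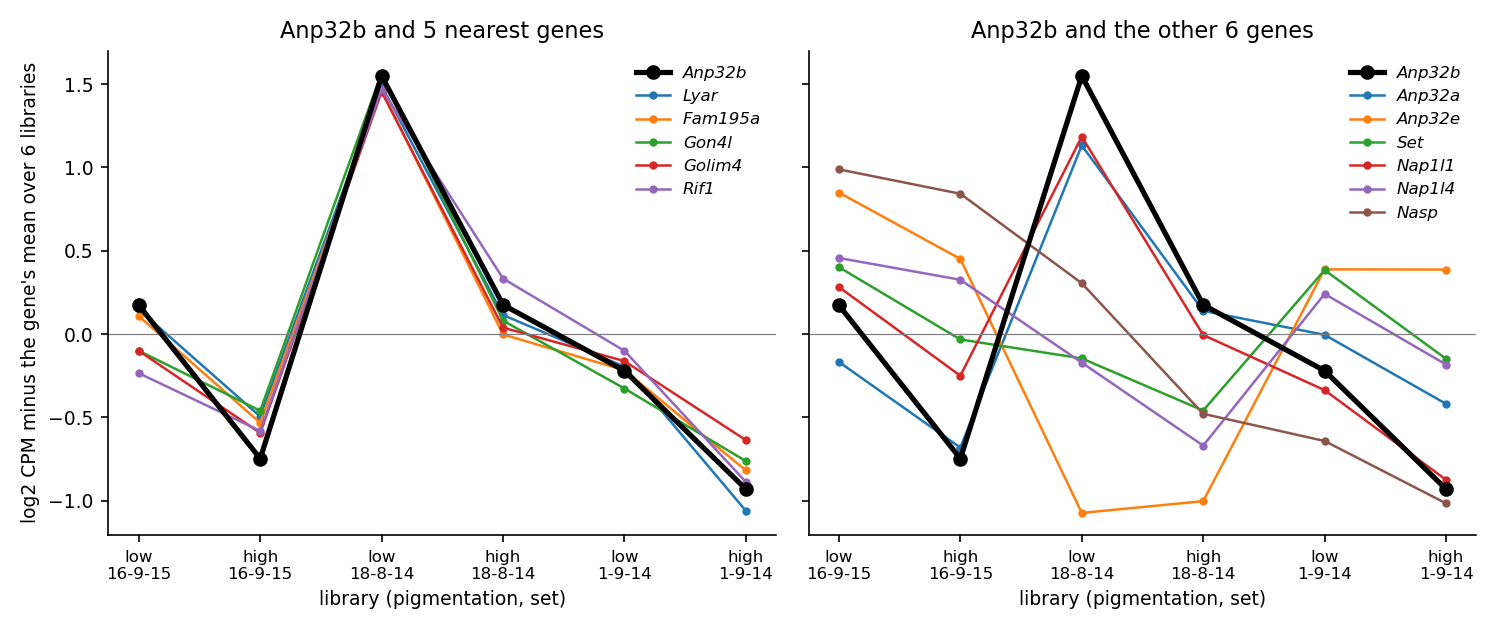
Log2 CPM minus the gene's mean over the 6 libraries, for Anp32b (black) with its 5 nearest genes (left) and with the other 6 chaperone genes (right). Lines only guide the eye between libraries. Nap1l1 and Anp32a share the peak of Anp32b in the low-pigmented library of 18-8-14, and Anp32e is lowest there.

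Other genes of histone handling were taken from 4 lists of 70 genes in all, of which 59 were tested. None of the 59 passed between high- and low-pigmented cells in edgeR's test over all genes (adjusted p 0.9996 for each gene named below unless another is given). In 11 of them (18.6%) the high-pigmented library was lower in every set, near the 17.2% of all genes. The median log2 difference was -0.17 over the 59 genes and -0.04 over all genes.

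Among 12 tested chaperones of H2A-H2B and linker histones the median log2 difference was -0.36, and 4 (33.3%, beside 17.2% of all genes) were lower in every set: *Ncl*, *Npm1*, *Dek* and *Ssrp1*. The medians within 16-9-15, 18-8-14 and 1-9-14 were -0.27, -0.66 and -0.23. *Ncl*, the gene of nucleolin, an acidic nucleolar protein with histone chaperone activity, had 1043, 992 and 925 CPM in the high-pigmented libraries of 16-9-15, 18-8-14 and 1-9-14 against 1606, 3241 and 1437 CPM with low pigmentation, with no overlap between groups. *Npm1*, the gene of nucleophosmin, had 788, 1347 and 1104 CPM against 1161, 1787 and 1508 CPM, and its groups overlapped. With the replicate block and without set 18-8-14 these 2 genes were called lower in high-pigmented cells. Log2 differences were -0.64 ± 0.11 for *Ncl* (SE, edgeR adjusted p 0.00403) and -0.51 ± 0.12 for *Npm1* (adjusted p 0.0252). None of the other 57 list genes passed in either direction. These are 2 of 59 list genes, beside 0.370% of all genes called lower in that fit. It holds only 4 libraries, so its SEs and p-values rest largely on spread shared across genes. With the block and all 6 libraries, *Ncl* had an adjusted p of 0.927 in edgeR and 0.0265 with limma-voom sample weights. *Npm1*, named after its values were seen, has stretches of up to 876 nucleotides in common with 7 genes, of which the table lists 5, and *Ncl* shares 133 with *Snora75*, which lies in its transcripts, so both counts are uncertain to that extent. *Dek*, an acidic H3.3-binding oncoprotein gene, had log2 differences of -0.31, -2.62 and -0.30 within the sets. It could as well stand with the H3-H4 chaperones, and it counts in the 33.3% above. The FACT subunit genes *Ssrp1* and *Supt16* had fitted log2 differences of -0.64 ± 0.40 and -0.78 ± 0.59 (SE), and *Supt16* turned to 0.06 without the low-pigmented library of 18-8-14.

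Among 20 tested H3-H4 chaperone genes 1, *Asf1a*, was lower in every set (5.0%, beside 17.2% of all genes). The median log2 difference was -0.18 over all libraries but 0.04 with the replicate block and without set 18-8-14. Within 16-9-15, 18-8-14 and 1-9-14 it was 0.06, -0.71 and 0.04. For *Atrx*, *Ubn1* and *Supt6* the difference was largest in 18-8-14. *Atrx*, the remodeller that works with DAXX, had log2 differences of 0.02, -2.39 and -0.09 in 16-9-15, 18-8-14 and 1-9-14, *Ubn1* of the HIRA complex 0.22, -1.81 and -0.37, and *Supt6* 0.10, -1.49 and -0.0050. *Chaf1a*, the large subunit of CAF-1, had few counts, 24, 13 and 20 in high-pigmented and 16, 0 and 0 in low-pigmented libraries. *Chaf1a* shares sequence with 50 genes and overlaps *Ubxn6* on the opposite strand, which adds doubt to these counts.

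The 18 tested genes of H2A.Z, the variant that ANP32E removes from nucleosomes, and of its exchange complexes had a median log2 difference of -0.12. Of these, 3 (16.7%, beside 17.2% of all genes) were lower in every set. *Ep400*, the ATPase of the TIP60 complex, had 216, 0 and 361 counts in high-pigmented and 255, 435 and 472 in low-pigmented libraries, and within 16-9-15 and 1-9-14 its log2 differences were -0.26 and -0.23. A count of 0 allows up to 3 counts. *Actr6* likewise had 0 counts in the high-pigmented library of 18-8-14. *Trrap* and *Znhit1* had fitted log2 differences of -0.67 ± 0.77 and 0.91 ± 0.87 (SE).

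Of the 9 tested partners in the SET complex, PP2A and RNA export, 3 were lower and 3 higher in the high-pigmented library of every set, beside 17.2% and 12.9% of all genes. The median log2 difference was 0.14 over all libraries but -0.15 with the replicate block and without set 18-8-14, and -0.06, 0.43 and -0.0032 within 16-9-15, 18-8-14 and 1-9-14. *Ppp2ca*, the catalytic subunit of the phosphatase that SET inhibits, had 224, 255 and 232 CPM in high-pigmented and 223, 142 and 196 CPM in low-pigmented libraries, and *Ppp2r1a*, its scaffold subunit, 62.2, 57.0 and 77.3 CPM against 59.0, 41.5 and 70.3 CPM. *Elavl1*, whose protein binds ANP32A and ANP32B, had log2 differences of -0.32, -2.04 and -0.14 within the sets, and *Nme2* had as few as 2 counts in a library. *Nme2* shares up to 576 nucleotides with 4 genes and overlaps an exon of *Gm20390* on the same strand, so its counts are uncertain. The within-set log2 differences of *Ppp2ca* were 0.0060, 0.84 and 0.25 and those of *Ppp2r1a* 0.07, 0.46 and 0.14. Without library scaling *Ppp2ca* was at -0.0079 in 16-9-15 and *Ppp2r1a* at -0.24 in 18-8-14, so neither kept 1 direction in every set under both scalings. *Ppp2ca* shares sequence with 198 genes, 150 of them in the table, and overlaps exons of 3 genes, so its counts are uncertain.

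**Figure D5:**
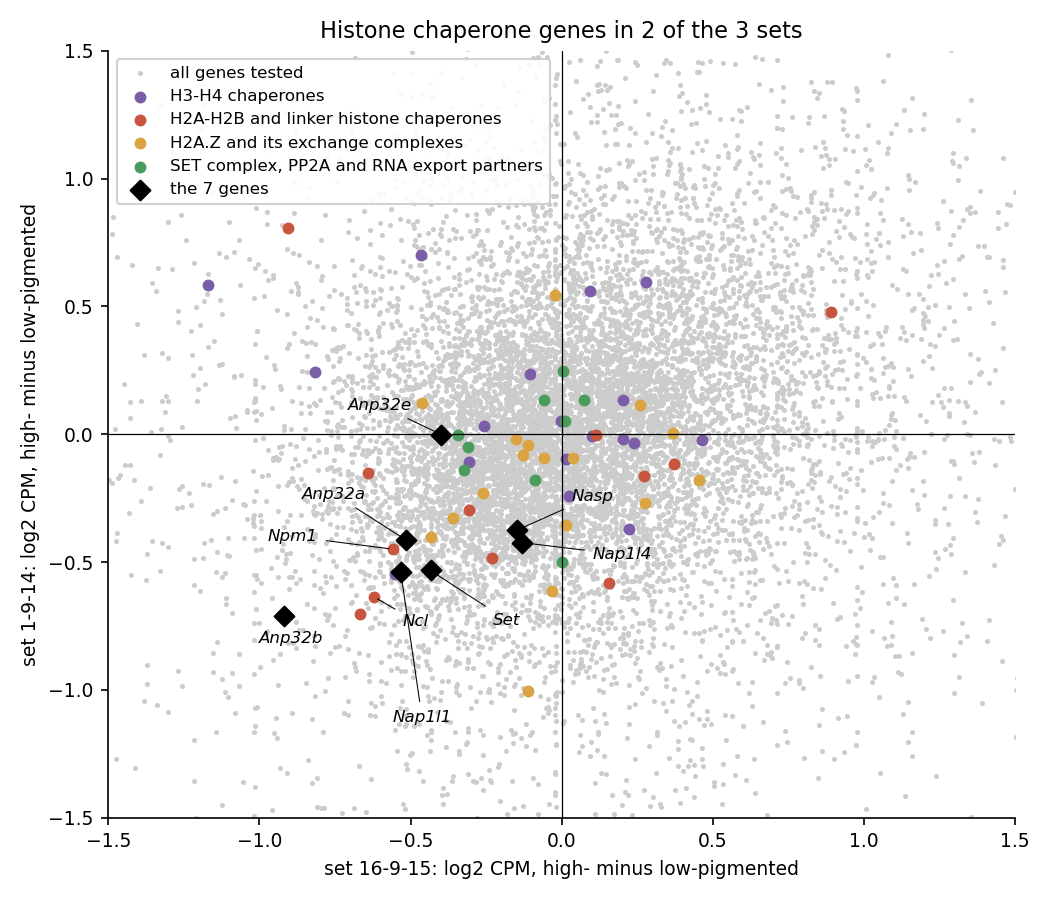
Log2 CPM, high- minus low-pigmented, in set 16-9-15 (horizontal) against set 1-9-14 (vertical) for the 7 genes (diamonds), the 4 gene lists (colours) and all genes tested (grey). The axes end at 1.5, which leaves out 662 genes, 3 of them list genes; Anp32b, Nap1l1, Set, Ncl and Npm1 lie in the lower left.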

How the data were processed

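RNA of sorted B16-F10 cells was sequenced from the 3′ end (Lexogen QuantSeq forward kit, Illumina NextSeq 500), per the labels' protocols. The authors deposited raw read counts for each gene and library. That HTSeq did the counting is read from the table's name and tally rows. STAR and GRCm38 are named in the submitters' processing notes. Versions, annotation and use of strand are not given in the sources used here. The 2 tally rows (no feature 12.4% to 29.5% and ambiguous 0.487% to 2.51% of tallied reads) were left out. No molecular identifiers are mentioned, so intervals cover counting error only.

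Genes were taken by the mouse symbol of the table. They were tested with edgeR 4.0.16 in R 4.3.3 (quasi-likelihood F test, robust), after filterByExpr at a minimum count of 10 and TMM scaling, with Benjamini-Hochberg adjustment over all genes. Groups of 3 libraries were compared with no covariate, and the 3 sets with pigmentation as a covariate. CPM uses TMM-scaled library sizes, and log2 CPM a prior count of 2. DESeq2 1.42.0, limma-voom 3.58.1 with sample weights, RLE scaling, no filter, the replicate block and each library left out in turn were tried as alternatives. Same-suffix libraries deviated together from their group means (correlations across genes of 0.466, 0.316 and 0.422), so the suffix was taken to pair them. Every pair of libraries differed beyond counting error (lowest ratio of chi-square to its degrees of freedom 13.5). Tested on simulated data, the group fit recovered 0%, 0% and 1.59% of genes changed 2-, 4- and 8-fold over 10714 genes. The set fit recovered 0%, 16.7% and 35.8% over 10972, and the block without 18-8-14 49.3%, 87.7% and 97.0% over 11606. False calls were 0 of 1, 3 of 37 and 6 of 161 in the same order. Apart from the planted changes, the simulated libraries came from a common mean profile, without the set differences and pairing of the real ones. These rates therefore do not measure the power of the fits on the real libraries. Shared sequence was sought with BLAST in GENCODE vM21.

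The members and gene lists were chosen with earlier results of these data known. Named are all 7 members, the 4 list genes of smallest p in each list, any list gene with an adjusted p under 0.05, and the 5 genes nearest to *Anp32b*.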

Additional observations from a re-analysis of the deposited data

Results flagged for a closer look

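Related rows that did not pass the filter on low counts, and so were in no comparison, had counts above the limit of 3 that a count of 0 allows in some libraries. *Anp32b-ps1*, a pseudogene by its name, had 8 and 17 counts in the low-pigmented libraries of 16-9-15 and 1-9-14 and at most 2 in any other library. *Nap1l3* had 8 and 7 counts in the same 2 libraries and 0 in the other 4. *Nap1l5* had 11 (high-pigmented) and 10 (low-pigmented) counts in set 18-8-14 and at most 3 elsewhere. These differences were not tested.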

How the results depend on the processing

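Between pigmentation groups the count of genes called was 0 in the main test and 0 to 0 when each library was left out in turn; it was 155 with the replicate block and without set 18-8-14 and 34 with the block and limma-voom sample weights, while the block alone gave 0. Between sets the count of 0 became 18 with RLE scaling, 226 with no filter, 1929 with DESeq2, 399 with no covariate for pigmentation, 3035 without set 18-8-14, and 0 to 7433 when each library was left out, of which the high- and low-pigmented libraries of 16-9-15 gave 34 and 74. Genes lower in every set numbered 1948, and 3208 without set 18-8-14. Genes with groups that did not overlap, high below low, numbered 375, 1408 without set 18-8-14, and 744 to 997 without each library. A set needs both its libraries for a within-set sign, so leaving out 1 library gave no such count. *Supt6* turned to 0.036 with the block and without set 18-8-14, and *Supt16* to 0.057 without the low-pigmented library of 18-8-14; the cause was not tested. Over 13 alternatives each, the log2 differences of *Anp32b* ran from -1.54 to -0.41, *Nap1l1* from -1.13 to -0.34, *Anp32a* from -0.98 to -0.21, *Set* from -0.60 to -0.32 and *Nap1l4* from -0.61 to -0.10, all below 0, while *Anp32e* (-0.56 to 0.25) was above 0 in 2 and *Nasp* (-1.10 to 0.11) in 1. Leaving scaling out shifted the median within-set difference of 18-8-14 by -0.68. Leaving out 3 dominant rows, set 18-8-14 in the sign and set comparisons, and libraries from the overlap count were chosen after the data were seen.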
